A study of Mus musculus with 8 samples.

Results

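Protein kinase A (PKA), protein kinase C (PKC) and glycogen synthase kinase 3 (GSK3) were represented by 9 genes of the 22430 in the count table: the PKA catalytic subunit genes Prkaca and Prkacb, the type I regulatory subunit genes Prkar1a and Prkar1b, the PKC genes Prkca, Prkcb and Prkce, and the GSK3 genes Gsk3a and Gsk3b. The genes were found by their Ensembl identifiers, and all 9 passed the filter on low counts (a mean count over 5), as did 9375 genes in all. They were chosen with the difference between the ages in these same libraries known, so their values at the 2 ages are a description and carry no test. The RNA came from brain hemispheres (labelled as whole brain) of male C57Bl/6JRj mice, for which no genotype or treatment other than age was given. There were 4 mice aged 6 months (6m) and 4 mice aged 24 months (24m), with 1 direct RNA nanopore library per mouse. Library totals ran from 573152 to 1255424 counts, so that 3 counts equalled 2.30 to 5.42 CPM (counts scaled to library size), which bounds what could be seen of the rarer kinases.

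PKA is held inactive by its regulatory subunits, and cAMP frees the catalytic subunits to phosphorylate ion channels, metabolic enzymes and the transcription factor CREB. The α, β and ε isoforms of PKC respond to the lipid messenger diacylglycerol, and α and β also need calcium, whereas ε does not. GSK3 is active in resting cells and is restrained when AKT phosphorylates it. It acts on glycogen synthase, β-catenin and microtubule proteins such as tau. In neurons these kinases take part in synaptic plasticity and in the control of the cytoskeleton.

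The genes differed in length as well as in level. In GENCODE vM39 on GRCm39, Gsk3b lies at chr16:37909363-38066446 on the plus strand, and its canonical transcript of 8303 nt carries a 3′UTR of 5518 nt. Gsk3a lies at chr7:24927682-24937564 on the minus strand, with a transcript of 2549 nt and a 3′UTR of 600 nt. Prkca (chr11:107824212-108235099, minus strand) has the longest transcript of the 9, at 8716 nt, and Prkaca (chr8:84699575-84723091, plus strand) the shortest, at 2342 nt. Prkacb (chr3:146435311-146518793, minus strand) has a transcript of 4443 nt, Prkar1a (chr11:109513434-109560633, plus strand) 3819 nt and Prkar1b (chr5:139002025-139136646, minus strand) 2849 nt. Prkcb (chr7:121887974-122233625, plus strand) has 3105 nt and Prkce (chr17:86474992-86965429, plus strand) 6557 nt. Counts were per whole gene, so a value covers every exon and both UTRs of all transcripts of that gene.

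The partners within each family are similar in coding sequence but not near-identical copies. Canonical coding sequences shared 80.2% of aligned bases between Prkaca and Prkacb, 75.2% between Prkar1a and Prkar1b and 72.9% between Gsk3a and Gsk3b. Among the PKC genes the shares were 77.6% for Prkca and Prkcb, 66.5% for Prkcb and Prkce and 65.7% for Prkca and Prkce. For 0 of the 9 genes was another annotated gene found with at least 95% identity over at least 50% of the transcript. Exons of Gsk3a overlap 1048 bases of the lncRNA 9130221H12Rik and 31 bases of Zfp526 on the opposite strand. Among others, opposite-strand exons also overlap Prkar1b by 301 bases (Dnaaf5), Prkca by 162 bases (Apoh), Prkar1a by 59 bases (Fam20a), Prkce by 306 bases (Gm64996) and Prkaca by 243 bases (Gm56840), and Prkar1b by a further 259 bases (Gm72716). On the same strand, exons of Prkar1b overlap 500 bases of the lncRNA Gm15672, those of Prkce 472 bases of Gm54542, those of Prkaca 62 bases of Smim46 and those of Prkca 60 bases of the pseudogene Gm52957. Reads within same-strand overlaps cannot be told apart whatever the setting, and those of opposite-strand partners cannot either here, since the strand setting of the authors' counting was not given in the sources used here.

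Because PKA signals to the nucleus through CREB, the 250 bases before each RefSeq start were searched for the cAMP response element TGACGTCA and its half-site TGACG, for the GC box GGGCGG, for CCAAT and for TATAAA, all on both strands. The RefSeq promoter table (built on GRCm38.p6) held 20 starts of 8 of the genes, each of which matched GRCm39 at 1 place, and none for Prkce. The full element stood before 1 of the 20 starts, 1 of those of Prkar1a, and before 1.55% of all 32851 promoters. The half-site, which the full element contains on each strand, stood before 7 of the 20 starts (35.0%) in 5 genes, and before 17.8% of all promoters. Several of the windows overlap and starts of 1 gene are not independent, so the shares are a description. The 4 stretches below show the element of Prkar1a, the half-sites of Prkar1b and Prkacb, the genes called higher at 24m, and the CCAAT box nearest the start of Gsk3b, the gene with the largest difference of the 9. Capitals mark these motifs, and all stretches are GRCm39, 5′ to 3′ on the gene's strand.
Prkar1a, chr11:109541715-109541744, plus strand, 60 to 31 bases before a start: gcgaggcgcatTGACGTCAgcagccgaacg
Prkar1b, chr5:139135757-139135876, minus strand, 120 to 1 bases before a start: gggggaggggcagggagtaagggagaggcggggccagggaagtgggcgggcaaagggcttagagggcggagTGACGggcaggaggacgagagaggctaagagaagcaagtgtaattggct
Prkacb, chr3:146518794-146518913, minus strand, 212 to 93 bases before a start: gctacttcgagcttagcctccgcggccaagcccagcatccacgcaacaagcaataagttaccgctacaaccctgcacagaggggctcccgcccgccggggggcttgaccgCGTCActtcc
Gsk3b, chr16:37909243-37909362, plus strand, 120 to 1 bases before the start: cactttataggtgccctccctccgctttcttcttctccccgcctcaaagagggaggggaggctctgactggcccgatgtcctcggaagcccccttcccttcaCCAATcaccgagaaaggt
The Prkar1a stretch lies within an exon of other annotated transcripts, and the other 3 hold 0 exonic bases. In Prkacb the half-site is on the opposite strand. In its 250 bases Gsk3b held 3 CCAAT boxes and 1 match to TATAAA, with no GC box and no cAMP response element. The TATAAA match is on the opposite strand, near the end of the printed stretch farthest from the start. The CCAAT box stood before 33.8% of all promoters, the TATA box before 12.4% and the GC box before 32.7%. Of the 20 starts of the kinase genes, 7 (35%) had a CCAAT box, 2 (10%) a TATA box and 11 (55%) a GC box. The higher share of the half-site was thus not particular to it, and the part of base composition was not tested. No factor's binding was measured in these libraries.

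In the fit across all genes, edgeR's quasi-likelihood test called 1359 of 9375 genes changed (14.5%), 968 of them higher at 24m (10.3%) and 391 lower (4.17%). For a call, the absolute log2FC had to reach 0.58 and the p adjusted by Benjamini-Hochberg had to be 0.05 or under. By this rule 4 of the 9 kinase genes were called, 2 higher (Prkacb and Prkar1b) and 2 lower (Prkcb and Gsk3b). The CPM of the ages did not overlap in 4 of the 9, with every 24m library above every 6m library in Prkar1b and Gsk3a, and below in Prkcb and Gsk3b. Over all tested genes 21.1% did not overlap, 11.1% upward and 9.96% downward. As the genes were chosen on this contrast, nothing is read from these counts. In bulk RNA, fewer cells of a type and less RNA per cell cannot be told apart.

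The 24m replicate 1 library stood apart from the other 7 on the second principal component of log2 CPM, at 38.4 against -17.5 to 7.48, and without it 3 of the 9 genes were called in place of 4, with Prkcb lost. Markers of the major cells of the brain were present in all libraries. Summed neuronal markers ran from 4110.0 to 4302 CPM at 6m and from 3999.6 to 4542 at 24m, with 1 of 7 called higher. Astrocyte markers ran from 2231 to 2721 CPM at 6m and from 2277 to 2989 at 24m, with 3 of 5 tested called higher, 1 called lower and a median log2FC of 1.42, the largest of the 11 marker lists. Oligodendrocyte markers ran from 1869.7 to 2437 CPM at 6m and from 2556 to 3448 at 24m (2 of 6 higher), and microglial markers from 675 to 745 CPM and from 845 to 1084 CPM (1 of 6 tested higher). Blood markers ran from 6090.3 to 10032 CPM at 6m and from 3350.4 to 6283 at 24m (5 of 5 lower), and cerebellar granule cell markers from 61.5 to 149 CPM and from 168 to 224 CPM (2 of 5 higher). Purkinje cell markers ran from 407 to 747 CPM at 6m and from 599 to 870.3 at 24m (2 of 4 higher). No marker of these lists summed to 0 over the libraries. Median transcript length behind the counts was 1794 to 1810 nt at 6m and 1861 to 1950 nt at 24m, and mitochondrial genes held 8.67 to 10.9% and 6.48 to 8.94% of counts. The part of these shifts in the values of the kinase genes was not tested.

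**Figure D1:**
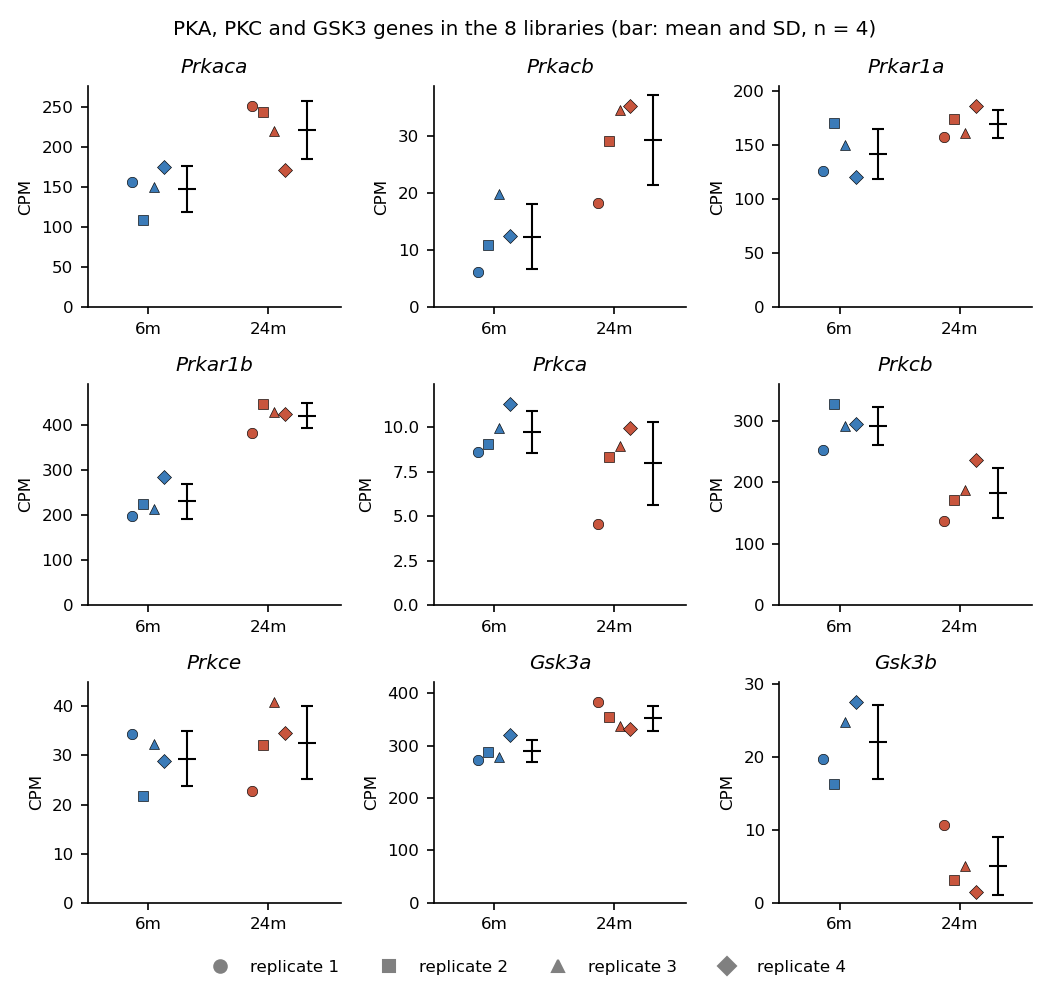
CPM (linear axes from 0) of the 9 kinase genes at 6m (blue) and 24m (red), with marker shape giving the replicate and the bars the mean and SD of 4 mice. Prkar1b and Gsk3a sit higher at 24m and Prkcb and Gsk3b lower without overlap, while the other 5 genes overlap.

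The catalytic subunits of PKA both had a higher mean at 24m, although their ranges overlapped. Prkaca, which encodes the Cα subunit, had 156, 108, 151 and 176 CPM in 6m replicates 1 to 4 and 252, 244, 220.1 and 172 CPM in 24m replicates 1 to 4. The overlap came from 24m replicate 4, which lay just under 6m replicate 4. Means were 148 ± 28.3 CPM at 6m and 222 ± 36.0 at 24m (SD, n = 4 each), and the log2FC was 0.56 (SE 0.138). This lay just under the fold minimum, and 6 of 19 alternatives put it over (range 0.46 to 0.69), among them leaving out 6m replicate 1, 6m replicate 4 or 24m replicate 4. Prkacb, which encodes Cβ, had 6.15, 10.8, 19.9 and 12.6 CPM at 6m and 18.3, 29.1, 34.6 and 35.3 at 24m. Only 24m replicate 1, the library that stood apart, fell within the 6m range. Its means were 12.4 ± 5.71 and 29.3 ± 7.84 CPM (SD, n = 4 each), and its log2FC was 1.26 (SE 0.301). These rest on 37 reads at 6m and 113 at 24m over 4 libraries each, a ratio of summed counts per library size of 2.45 (95% exact binomial interval 1.67 to 3.65, counting error only).

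The regulatory subunits differed from each other. Prkar1b encodes RIβ, the type I subunit that is largely restricted to the nervous system. It had 199, 224, 214 and 286 CPM at 6m and 384, 448, 430.0 and 426 at 24m. All 24m libraries lay above all 6m libraries, and the 24m values lay closer together, with a coefficient of variation of 6.41% against 16.6%. Means were 231 ± 38.3 and 422 ± 27.0 CPM (SD, n = 4 each), a 1.83-fold higher mean, and the log2FC was 0.87 (SE 0.108), between 0.81 and 1.00 under every alternative. Prkar1a, which encodes the widely expressed RIα, had 126, 170.0, 149 and 121 CPM at 6m and 157, 174, 161 and 186 at 24m. The second 6m replicate lay inside the 24m range, and the log2FC of 0.28 (SE 0.127) was under the fold minimum, from means of 141 ± 22.8 and 169 ± 12.9 CPM (SD, n = 4 each). Summed over both type I subunits, CPM were 372 ± 36.5 at 6m and 591 ± 35.8 at 24m, and summed over both catalytic subunits 160.2 ± 29.3 and 251 ± 30.5 (SD, n = 4 each).

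Among the PKC genes, Prkcb stood lower at 24m and the other 2 overlapped. Prkcb encodes PKCβ, a calcium-dependent isoform abundant in forebrain neurons. It had 252, 327, 291 and 295 CPM at 6m and 137, 172, 187 and 235 at 24m. The lowest value was that of 24m replicate 1, and the highest 24m value, replicate 4, lay under the lowest at 6m. Means were 291 ± 30.7 and 183 ± 40.8 CPM (SD, n = 4 each), and the log2FC was -0.65 (SE 0.129). The call was lost without 24m replicate 1 (-0.53) and with library sizes alone in place of TMM scaling (-0.54), a scaling under which the median of all genes lay at 0.10.

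Prkce encodes the calcium-independent PKCε. It had 34.5, 21.7, 32.4 and 28.9 CPM at 6m and 22.9, 32.2, 40.9 and 34.5 at 24m. The ages overlapped almost fully, with means of 29.4 ± 5.60 and 32.6 ± 7.49 CPM (SD, n = 4 each) and a log2FC of 0.15 (SE 0.218). Prkca, which encodes PKCα, was the rarest of the 9 by mean count, at 7.5 counts a library. It had 8.62, 9.04, 9.96 and 11.3 CPM at 6m and 4.57, 8.32, 8.96 and 9.97 at 24m, and only 24m replicate 1, with 3 counts, lay clearly under the rest. Its log2FC of -0.23 (SE 0.369) had an SE larger than itself. From 29 and 31 summed reads the ratio of 24m to 6m was 0.856, with an exact binomial interval of 0.499 to 1.47, so that a difference of the size seen in Prkcb was not detectable at this depth.

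The GSK3 genes lay in opposite directions. Gsk3a encodes GSK3α. It had 273, 288, 279 and 320.2 CPM at 6m and 384, 356, 338 and 332 at 24m. All 24m libraries lay above all 6m libraries, but by little: means were 289.9 ± 21.0 and 352 ± 23.4 CPM (SD, n = 4 each) and the log2FC of 0.28 (SE 0.0968) was under the fold minimum. Gsk3b encodes GSK3β, the form most studied in neurons. It had 19.7, 16.3, 24.9 and 27.6 CPM at 6m and 10.7, 3.12, 5.12 and 1.53 at 24m. Every 24m library lay below every 6m library, and the highest at 24m was the library that stood apart.

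The Gsk3b values rest on few reads. There were 16, 9, 20 and 22 reads at 6m and 7, 3, 4 and 2 at 24m. Means were 22.1 ± 5.10 and 5.11 ± 3.99 CPM (SD, n = 4 each), and the log2FC was -2.31 (SE 0.411). The ratio of summed reads per library size, 6m over 24m, was 5.23 (95% exact binomial interval 3.00 to 9.67, counting error only). Leaving out 24m replicate 1 gave a log2FC of -2.86, and the range over all alternatives was -2.86 to -1.89. With more than 5 counts required in every library, Gsk3b was not tested. Among the 2337 tested genes with canonical transcripts of 4671 nt or more, which include Gsk3b, Prkca and Prkce, 7.27% were called lower and 13.4% higher. Among the 487 over 8000 nt, a limit set after the values were seen, 14.8% were called lower and 7.39% higher, with a median log2FC of -0.14. Of all tested genes 4.17% were lower and 10.3% higher. The part of transcript length in the Gsk3b value was not tested.

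**Figure D2:**
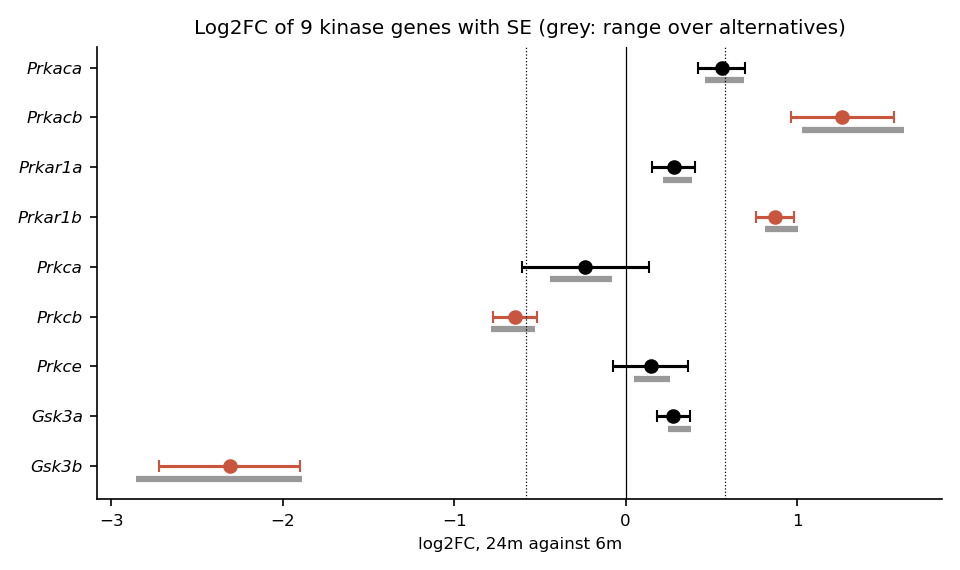
Log2FC of 24m against 6m with its SE (points and bars; red where called changed) for the 9 kinase genes, the grey bar under each giving the range over alternative processing and the dotted lines the fold minimum of 0.58. Gsk3b lies farthest from 0 at -2.31, Prkacb at 1.26 and Prkar1b at 0.87, while the range of Prkcb and that of Prkaca cross a dotted line.

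Within a library, the share of a family's reads held by one member does not depend on how libraries are scaled. Gsk3b held 6.72, 5.36, 8.20 and 7.94% of GSK3 reads at 6m and 2.70, 0.870, 1.49 and 0.460% at 24m. The groups were apart, although the 95% exact binomial (Clopper-Pearson) interval of the highest 24m share, 1.09 to 5.49%, overlapped that of the lowest 6m share, 2.48 to 9.93%. Intervals cover counting error only.

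Of the PKC reads, Prkcb held 85.4, 91.4, 87.3 and 88.0% at 6m and 83.3, 80.9, 78.9 and 84.1% at 24m. Prkce held 11.7, 6.06, 9.70 and 8.61% at 6m and 13.9, 15.2, 17.3 and 12.3% at 24m. Both sets of shares were apart between the ages by about a percentage point, and summed PKC reads ran from 295 to 358 CPM at 6m and from 165 to 280.0 at 24m. Prkca kept the smallest share, 2.95 ± 0.346% and 3.51 ± 0.511% (SD, n = 4 each).

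Prkar1b held 61.4, 56.9, 58.9 and 70.4% of type I regulatory reads at 6m and 71.0, 72.1, 72.7 and 69.6% at 24m. It was the larger part in every library, and 6m replicate 4 lay among the 24m values. Prkacb held 3.79, 9.09, 11.7 and 6.67% of catalytic reads at 6m and 6.78, 10.6, 13.6 and 17.0% at 24m. These shares overlapped widely between the ages.

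**Figure D3:**
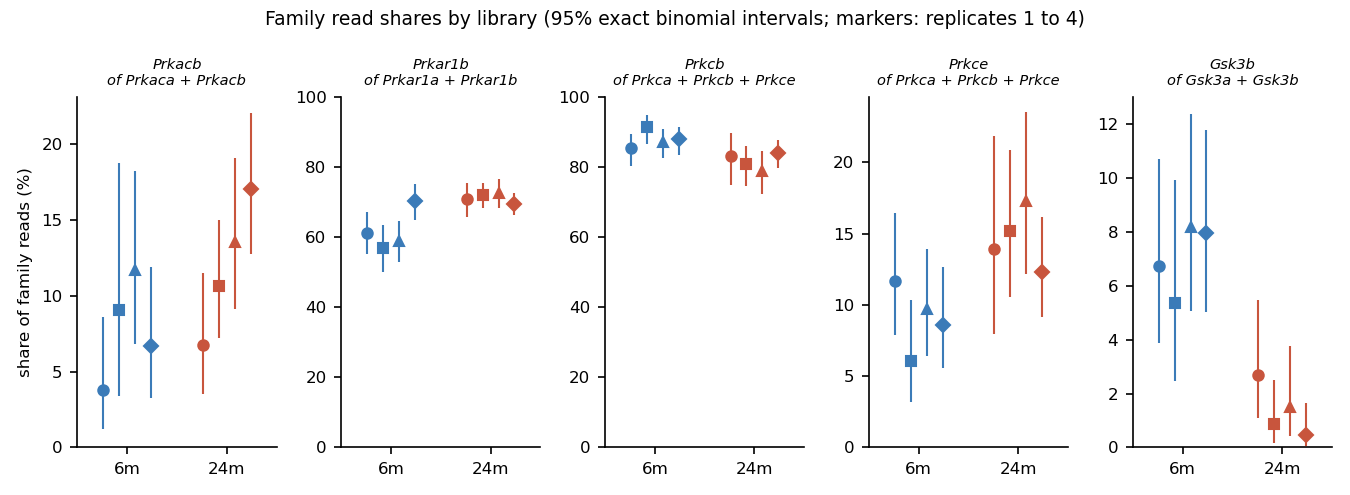
Share of family reads (%, own axis per panel, from 0) held by Prkacb, Prkar1b, Prkcb, Prkce and Gsk3b in each 6m (blue) and 24m (red) library, with 95% exact binomial intervals. Gsk3b holds 5.36 to 8.20% at 6m and 0.460 to 2.70% at 24m, and the panels of Prkacb and Prkar1b overlap between the ages.

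The levels of the 9 genes relative to each other were compared per kilobase of canonical transcript. The genes were chosen on the contrast between the ages and not on these levels. Values pooled over the 8 libraries still include both ages. Mean CPM per kb over the 8 libraries were 126 ± 15.4 for Gsk3a, 115 ± 37.4 for Prkar1b, 78.9 ± 21.2 for Prkaca, 76.4 ± 21.6 for Prkcb and 40.7 ± 5.97 for Prkar1a (SD, n = 8). The remaining 4 were rarer, at 4.73 ± 0.971 for Prkce, 4.69 ± 2.49 for Prkacb, 1.64 ± 1.21 for Gsk3b and 1.01 ± 0.226 CPM per kb for Prkca (SD, n = 8). Of the neighbours in this order, the ranges over all libraries were apart only between Prkar1a and Prkce, so that the genes formed a higher group of 5 and a lower group of 4. Within the higher group the order by mean moved with age: Gsk3a, Prkcb, Prkar1b, Prkaca and Prkar1a at 6m, and Prkar1b, Gsk3a, Prkaca, Prkcb and Prkar1a at 24m. Prkaca lay above Prkcb per kb in 0 of 4 libraries at 6m and in 3 of 4 at 24m. The order of the lower group moved as well, from Prkce, Prkacb, Gsk3b and Prkca by mean at 6m to Prkacb, Prkce, Prkca and Gsk3b at 24m. Prkce lay above Prkacb per kb in 4 of 4 libraries at 6m and in 0 of 4 at 24m, and Gsk3b above Prkca in 4 of 4 and in 1 of 4, all given with no test. The switch of Prkce and Prkacb was seen only per kb. By CPM, Prkce kept the higher mean, 29.4 against 12.4 at 6m and 32.6 against 29.3 at 24m. In 24m replicates 1 to 4 Prkce had 15, 31, 32 and 45 reads and Prkacb 12, 28, 27 and 46. The order of the higher group also depended on the scale. By mean CPM over the 8 libraries Prkar1b (326) lay over Gsk3a (321) and Prkcb (237) over Prkaca (185), unlike per kb. At 6m Prkcb (291 CPM) lay just over Gsk3a (289.9 CPM). With merged exon length in place of the canonical transcript, Prkcb came to 20.8 and Prkar1b to 38.4 CPM per kb, under Prkaca at 65.7.

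Within all 4 families 1 gene held the higher level per kb in each library. Over the 8 libraries Gsk3a was 111-fold over Gsk3b, a mean log2 ratio of 6.80 ± 1.63 (SD, n = 8, exact two-sided sign-flip permutation p = 0.00781). Prkaca was 18.9-fold over Prkacb (4.24 ± 0.75 on the log2 scale) and Prkar1b 2.71-fold over Prkar1a (log2 ratio of Prkar1a to Prkar1b -1.44 ± 0.41). Prkcb was 74.5-fold over Prkca and 15.9-fold over Prkce, and Prkce 4.70-fold over Prkca. Each of the 6 pairs had the same sign in 8 of 8 libraries, and each gave the exact permutation p of 0.00781, the smallest that 8 libraries allow, with the same value after Benjamini-Hochberg adjustment over the 6. That p follows from the common sign alone and does not measure the size of a fold. By read counts without length scaling the folds were smaller, at 34.2 for Gsk3a over Gsk3b, 9.95 for Prkaca over Prkacb, 2.02 for Prkar1b over Prkar1a, 26.5 for Prkcb over Prkca, 7.51 for Prkcb over Prkce and 3.54 for Prkce over Prkca. A direct RNA read stands for 1 molecule, so that both scales are given. Within the ages the log2 ratio per kb of Gsk3a to Gsk3b was 5.44 ± 0.30 at 6m and 8.16 ± 1.10 at 24m (SD, n = 4 each), given with no test. The pooled 111-fold lies between the ages and describes neither of them.

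**Figure D4:**
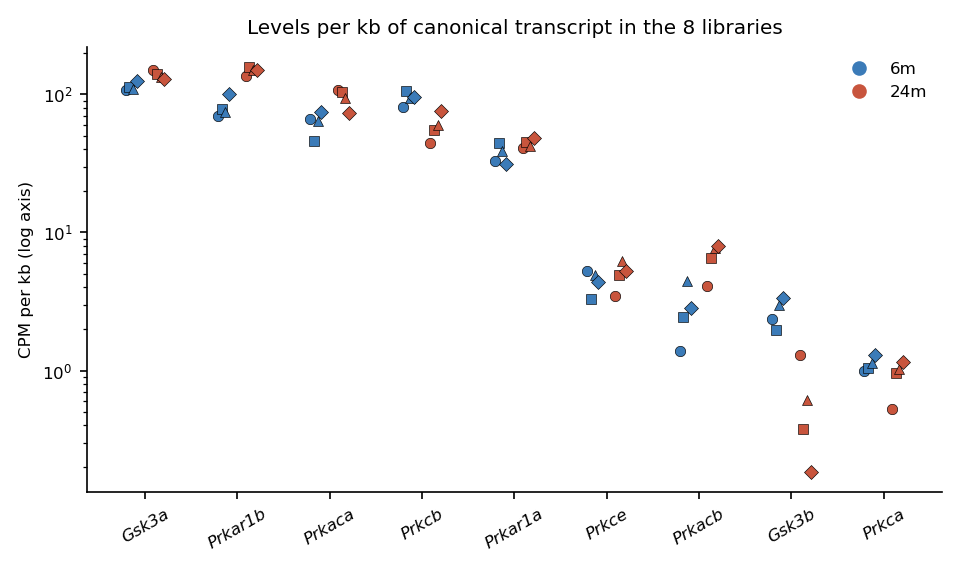
CPM per kb of canonical transcript (log axis) of the 9 genes in the 6m (blue) and 24m (red) libraries, ordered by the mean over all 8, marker shape giving the replicate. A gap separates Gsk3a, Prkar1b, Prkaca, Prkcb and Prkar1a from Prkce, Prkacb, Gsk3b and Prkca.

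The other subunits and isoforms of these kinases described here were not called changed. Of the PKC isoforms, Prkcd (PKCδ) had a log2FC of -0.32 (SE 0.166, edgeR adjusted p = 0.173), Prkcz (PKCζ and its brain form PKMζ) of 0.18 (SE 0.119, edgeR adjusted p = 0.315) and Prkcq (PKCθ) of -0.29 (SE 0.435, edgeR adjusted p = 0.683). A further 5 had too few reads for a test. Prkar2b, which encodes RIIβ, had 4.13 ± 4.24 CPM at 6m and 6.91 ± 2.56 at 24m, and Prkar2a, which encodes RIIα, 0.936 ± 1.20 and 3.52 ± 1.28 CPM. Prkci had 2.61 ± 2.58 and 5.90 ± 4.14 CPM, Prkch 3.88 ± 2.56 and 4.50 ± 1.96 CPM and Prkx 0.308 ± 0.615 and 0.573 ± 0.730 CPM (SD, n = 4 each).

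In the cAMP and PKA pathway, listed as 44 further genes of cAMP synthesis, breakdown, anchoring and signaling, 32 were tested and 6 changed (18.8%, against 14.5% of all tested genes), 4 higher and 2 lower. The median log2FC of the tested genes was 0.19, against -0.0034 for all tested genes. All 3 pathway lists were set with earlier results of these data known. Their shares, medians and adjusted p are therefore a description, and nothing is read from the shares. Pkia, which encodes an inhibitor of the PKA catalytic subunit, rose from 4.03 ± 2.96 to 13.9 ± 3.22 CPM (log2FC 1.74, SE 0.471, edgeR adjusted p = 0.0103), from 12 reads in all at 6m. The adenylyl cyclase genes Adcy9 and Adcy5, whose products make cAMP, rose, Adcy9 with a log2FC of 1.48 (SE 0.469, edgeR adjusted p = 0.0251) and Adcy5 with 0.63 (SE 0.158, edgeR adjusted p = 0.00582). Among the phosphodiesterase genes, whose products break cAMP down, Pde4a rose by a log2FC of 0.79 (SE 0.238, edgeR adjusted p = 0.0192). The calcium-dependent Pde1a fell from 25.1 ± 1.74 to 12.6 ± 4.48 CPM (SD, n = 4 each), by 1.01 on the log2 scale (SE 0.279, edgeR adjusted p = 0.0115). Akap11, which encodes an anchor that binds both PKA and GSK3β, fell by 1.00 on the log2 scale (SE 0.314, edgeR adjusted p = 0.0241). Its canonical transcript has 9403 nt, and of tested genes over 8000 nt 14.8% were called lower and 7.39% higher. The part of transcript length was not tested. The count was 3 without 24m replicate 2 and 3 with DESeq2. Pkia and Pde1a kept their calls without any 1 library, whereas Adcy9 kept it only without 6m replicate 2 or 24m replicate 1: it lost it without 6m replicate 1, 3 or 4 or 24m replicate 2 or 3 (log2FC down to 1.18) and was not tested without 24m replicate 4, where its mean count was no longer over 5. Akap11 lost its call without 6m replicate 3 or 4 or 24m replicate 2 or 4. Pde4a lost it without 6m replicate 3 or 24m replicate 2 or 3. Over all runs that left out 1 library, their log2FC ran from -1.12 to -0.79 and from 0.63 to 0.98. Adcy5 lost its call without 6m replicate 1 (0.55).

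In the PKC pathway, listed as 46 further genes of other isoforms, phospholipase C, inositol trisphosphate receptors, diacylglycerol kinases and PKC substrates, 32 were tested and 5 changed (15.6%), 3 higher and 2 lower, with a median log2FC of -0.02. Of all tested genes 14.5% changed, and this list too was set with earlier results known. Pdpk1 encodes PDK1, which phosphorylates and primes PKC isoforms and AKT. It fell from 109.6 ± 5.72 to 47.5 ± 12.3 CPM (SD, n = 4 each), by 1.15 on the log2 scale (SE 0.163, edgeR adjusted p = 1.7e-05). Its values were 107, 118, 109.5 and 104 CPM at 6m and 36.6, 44.7, 43.5 and 65.2 at 24m, far apart. Plcb1, which encodes a phospholipase C that makes diacylglycerol, fell by 0.84 on the log2 scale (SE 0.261, edgeR adjusted p = 0.0230). The canonical transcripts of Pdpk1 and Plcb1 have 7165 and 7095 nt. Of tested genes of 4671 nt or more, 7.27% were called lower and 13.4% higher. The part of transcript length was not tested. The genes that rose were Dgkg, a diacylglycerol kinase gene (log2FC 0.96, SE 0.303, edgeR adjusted p = 0.0244), Gna11, a G protein gene upstream of phospholipase C (log2FC 0.77, SE 0.222, edgeR adjusted p = 0.0151), and Add1, the gene of the PKC substrate adducin (log2FC 0.67, SE 0.126, edgeR adjusted p = 0.000494). The count was 2 without 24m replicate 2 and 3 without 6m replicate 4. Pdpk1 and Add1 kept their calls without any 1 library, whereas Dgkg lost it without 6m replicate 1 or 4 or 24m replicate 2 or 3. Plcb1 lost its call without 6m replicate 3 or 4 or 24m replicate 2, and Gna11 without 24m replicate 2. Over all runs that left out 1 library, log2FC ran from 0.87 to 1.07 for Dgkg. It ran from -1.03 to -0.65 for Plcb1 and from 0.65 to 1.01 for Gna11.

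In the GSK3 pathway, listed as 43 genes of AKT and WNT signaling, GSK3 substrates and priming kinases, 38 were tested and 5 changed (13.2%), 2 higher and 3 lower, with a median log2FC of -0.04. The share over all tested genes was 14.5%, and this list was also set with earlier results known. The largest decrease of the list was in Map1b, which encodes a microtubule-associated protein phosphorylated by GSK3β. It had 48.0, 32.5, 44.8 and 46.5 CPM at 6m and 9.15, 4.16, 7.68 and 3.84 at 24m, and fell by 2.90 on the log2 scale (SE 0.294, edgeR adjusted p = 3.68e-07). Mapt, the tau gene, fell from 56.4 ± 9.07 to 35.3 ± 8.01 CPM (SD, n = 4 each), by 0.74 on the log2 scale (SE 0.189, edgeR adjusted p = 0.00674). The canonical transcript of Map1b has 11893 nt and that of Mapt 6345 nt. Of tested genes over 8000 nt 14.8% were called lower and 7.39% higher, and of those of 4671 nt or more 7.27% and 13.4%. The part of transcript length in these decreases was not tested. Cdk5r1 encodes p35, the activator of CDK5, a kinase that primes substrates for GSK3. It had 9.85, 7.23, 8.71 and 11.3 CPM at 6m and 24.4, 46.8, 55.0 and 30.7 at 24m, and rose by a log2FC of 2.04 (SE 0.301, edgeR adjusted p = 3e-05). Csnk1d, a casein kinase gene, rose by a log2FC of 0.98 (SE 0.282, edgeR adjusted p = 0.0144), although 4529 of its exon bases overlap Slc16a3 on the opposite strand. The count was 3 without 6m replicate 1 and 2 with more than 5 counts in every library. Map1b and Cdk5r1 kept their calls without any 1 library, whereas Csnk1d lost it without 6m replicate 1 or 24m replicate 2. Over all runs that left out 1 library, the log2FC of Csnk1d ran from 0.84 to 1.19. Mapt lost its call without 24m replicate 4 (-0.57).

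**Figure D5:**
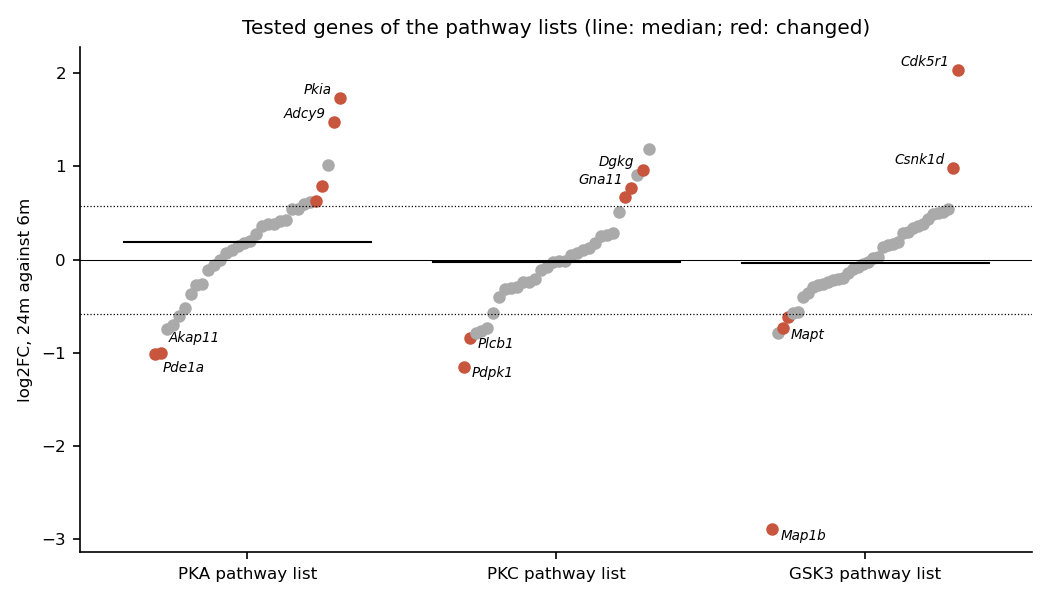
Log2FC of 24m against 6m of every tested gene in the 3 pathway lists, in rank order within each list, with called genes in red, the 4 of each list farthest from 0 named, medians as black lines and the fold minimum as dotted lines. The medians lie at 0.19, -0.02 and -0.04, and Map1b at -2.90 and Cdk5r1 at 2.04 lie farthest from 0.

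The genes most like each kinase gene across the 8 libraries were named, by Pearson r over log2 CPM among 2726 genes with a mean count of at least 50, for the 6 kinase genes with a mean count of at least 20. They are descriptions over libraries that also differ by age and depth. Each r is the highest found in a search of these 2726 genes over only 8 libraries, so nothing is read from its size. For Prkaca they were Rap1gap (r = 0.994), Pde1b and Pip4p1, and for Prkar1b Epdr1 (r = 0.989), Hacd3 and Tmbim6. Those of Prkar1a were Nap1l5 (r = 0.990), Chtop and Lmo4, and those of Gsk3a Ptpa (r = 0.987), Gabarapl1 and Tmed4. Prkcb, the gene lower at 24m, was most like Snrpn (r = 0.978), Bcas2 and Cox8a, and Prkce most like Dlgap4 (r = 0.944) and Rab14. Prkacb, Prkca and Gsk3b had too few reads for this comparison.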

How the data were processed

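The deposited values are raw counts of direct RNA nanopore reads per gene in 8 libraries. Per the methods, the authors mapped reads to GRCm39 with minimap2 (version 2.24 per the submitters' processing notes) and counted them with featureCounts on Ensembl genes. The labels name another library kit. The kinase genes and the pathway lists were chosen with earlier results of these data known. Counts were analysed with edgeR 4.0.16 in R 4.3.3 (TMM scaling, mean count over 5, age as the only term, quasi-likelihood test), and with limma 3.58.1 and DESeq2 1.42.0 as alternatives. Of 200 genes changed in simulated counts, 184 passed the filter; edgeR called 75.8% of those changed by a log2FC of 1 and 97.6% of those changed by 2, with 6 false calls among 9155 tested. Of the 22430 identifiers, 22281 matched GENCODE vM39. Named genes were all 9 kinase genes, the other isoforms and subunits, and up to 6 changed genes of each list with the largest absolute log2FC; some genes that this rule names are not reported here. Libraries are separate mice.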

Additional observations from a re-analysis of the deposited data

Results flagged for a closer look

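The total count of 6m replicate 2, 573152, lay far from those of the other 6m libraries, which ran from 818963 to 843706. Its gap was 0.909 of the range of the group, past Dixon's 95% limit for 4 samples. It was 1 of 22 groups of values examined, where chance gives about 1. In this library 3 counts equalled 5.42 CPM, the coarsest of the 8, which touches Prkacb (6 reads), Prkca (5 reads) and Gsk3b (9 reads) most.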

How the results depend on the processing

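Of 167 values of the kinase genes under the alternatives, 0 changed direction, 2 lost a call (Prkcb) and 6 gained one (Prkaca), and 3 to 6 of the 9 genes were called. With more than 5 counts required in every library, 6 of the 9 were tested. Prkacb, Prkca and Gsk3b were not, so that their values there are missing and not counted as lost calls. Of 368 values of the named pathway genes, 46 lost a call and 0 changed direction. DESeq2 called 834 genes on raw counts and 824 on quantile-normalized counts in place of 1359, and 3 PKA pathway genes under each; it called 3 PKC pathway genes on raw counts, as did limma-voom. With adjusted p alone, 10 PKA and 8 GSK3 pathway genes were called, and with more than 5 counts in every library 2 GSK3 pathway genes. Leaving out 1 library gave 989 to 1594 genes in all, 3 to 9 in the PKA, 2 to 7 in the PKC and 3 to 6 in the GSK3 list. Scaling by library size alone called 1218 higher and 223 lower, and limma-voom 701 and 484, against 968 and 391; the cause was not tested. DESeq2 gave no adjusted p on quantile-normalized counts for Adcy9 and Prkcq. Deviations of libraries with the same replicate number correlated by -0.16 to 0.06. These values show no pairing by number but cannot exclude one, and the sample titles name none. The fit with the replicate block called 1308 genes, 4 of the 9 kinase genes, and 7 PKA, 6 PKC and 5 GSK3 pathway genes. Depth limits Gsk3b, Prkca and Prkacb most.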
